A study of Homo sapiens with 54 samples.

Results

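Overexpression of TRA2B was compared with expression of luciferase (Luc) in LN229, an established human glioblastoma cell line, across all genes measured by bulk RNA-seq. The comparison set the 3 TRA2B-OE Control KO libraries against the 3 Luc Control KO libraries, 6 of the 54 samples of the series. All genes with at least 1 TPM (transcripts scaled to a fixed total per library) in at least 4 of the 15 LN229 libraries were kept, which left 18490 of the 55906 genes in the table. Both groups carried Cas9 and guide RNAs directed at control loci, delivered by lentivirus, and RNA was collected a week after the guides were delivered. They differed in the lentiviral cDNA, which encoded TRA2B in one group and luciferase in the other. The cells were transduced populations and not single clones, and the promoter that drove the cDNA was not given in the sources used here. Nothing in the labels says that the 3 replicates came from separate cultures, so p-values measure the spread between these samples, which may be technical. The series asked whether TRA2B can stand in for its paralog TRA2A, and this comparison concerns added TRA2B in cells whose TRA2A gene was left intact. Any other difference between the population with TRA2B and that with luciferase cannot be told apart from an effect of TRA2B.

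TRA2A and TRA2B are paralogous RNA-binding proteins of the SR-like family. Both bind GAA-rich stretches within exons and promote inclusion of those exons in the mature mRNA. Each gene also carries a so-called poison exon, an ultraconserved alternative exon whose inclusion interrupts the reading frame and exposes the transcript to nonsense-mediated decay (NMD), and TRA2 proteins bind these exons, so that the proteins limit their own supply and that of each other. The richest stretch of GAA within each poison exon is shown because TRA2A was one of the genes whose level changed. Both windows are 30 bases long, were read from hg38 on the minus strand, on which both genes lie, and are written 5′ to 3′ with every GAA triplet in capitals.
TRA2A poison exon, chr7:23522144-23522173: GAAgtaGAAttaaaaGAAtctgGAAGAAtg
TRA2B poison exon, chr3:185931631-185931660: GAAtttGAAacgGAAGAAtGAAGAAaaGAA
The TRA2A exon spans chr7:23522132-23522432 (301 bases) and the TRA2B exon spans chr3:185931577-185931852 (276 bases), and each is part of 1 transcript annotated as an NMD target in GENCODE 44. GAA triplets cover 15 of the 30 bases shown for TRA2A and 21 of the 30 shown for TRA2B. The sense strand of the whole exon holds GAAGAA 4 times in TRA2A and 3 times in TRA2B, overlapping matches included. Of 18398 internal exons of 200 to 400 bases in canonical transcripts of protein-coding genes, 21.3% hold GAAGAA at least once, 0.489% hold it at least 4 times and 1.37% at least 3 times. The deposited values are per gene, so inclusion of these exons was not measured here.

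The replicate 1 libraries of both groups stood apart from the other libraries of their group. Over all genes kept, Luc Control KO replicate 1 had Pearson correlations of 0.949 and 0.940 with replicates 2 and 3 of its own group on the log2 scale, and of 0.957 to 0.960 with the 3 libraries of cells in which TRA2B had been knocked out. Luc Control KO replicates 2 and 3 correlated at 0.952, so the correlations within the Luc group did not by themselves single out replicate 1. The TRA2A level of Luc Control KO replicate 1, 105 TPM, was nevertheless like that of its own group (111 TPM in both others). It was unlike that of the TRA2B KO libraries (167 to 171 TPM). TRA2B-OE Control KO replicate 1 correlated at 0.943 and 0.947 with its group, while replicates 2 and 3 correlated at 0.965.
The genes that set the replicate 1 libraries apart included cell cycle and interferon genes. The mean log2 level of 43 S phase genes was 5.04 in Luc replicate 1 against 5.74 and 5.70 in replicates 2 and 3, and 5.05 in TRA2B-OE replicate 1 against 5.68 and 5.75. The mean of 40 interferon-stimulated genes was 4.16, 3.39 and 3.22 in the Luc libraries and 3.76, 3.10 and 2.94 in the TRA2B-OE libraries. For both lists, the gap between replicate 1 and the other libraries of its group was larger than the gap between same-numbered libraries of the groups. What set these libraries apart was not tested, and counts are given with and without them. Of 14 glial and glioma markers, 12 passed the filter (AQP4 and CHI3L1 did not), against 2 of 9 epithelial and 2 of 8 blood and endothelial markers. Of 8 neuronal markers, 5 passed, none of them changed with TRA2B-OE, and their median log2 fold change was -0.07 (-0.20 without the replicate 1 libraries).

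**Figure D1:**
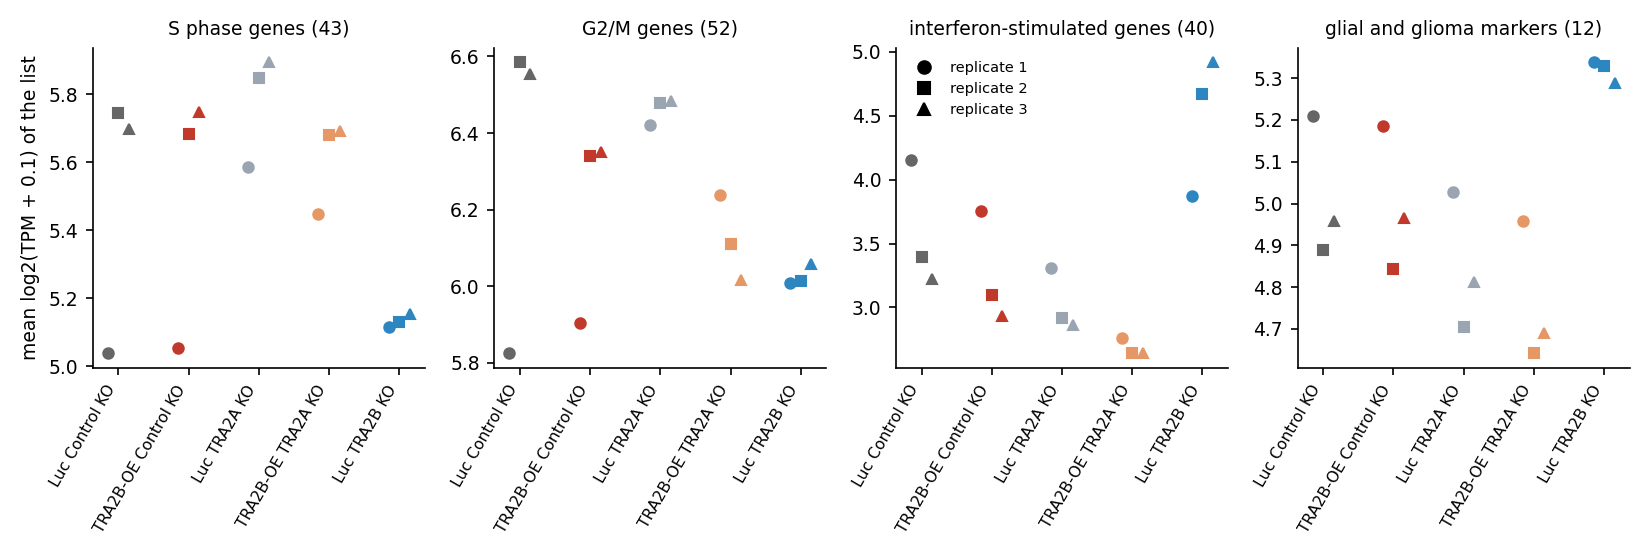
Mean log2(TPM + 0.1) of S phase genes (n = 43), G2/M genes (52), interferon-stimulated genes (40) and glial and glioma markers (12) in each LN229 library, with 1 point per library. The replicate 1 libraries of Luc Control KO and TRA2B-OE Control KO sit below their groups for S phase (5.04 and 5.05) and above them for interferon genes (4.16 and 3.76).

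TRA2B mRNA was higher in every TRA2B-OE library than in every Luc library, as the labels state. It measured 202, 232 and 234 TPM in the Luc Control KO libraries (222 ± 18.0, SD, n = 3) and 703, 900 and 893 TPM in the TRA2B-OE Control KO libraries (832 ± 112, n = 3), a ratio of means of 3.74. The log2 fold change, taken on scaled log2(TPM + 0.1) as are all that follow, was 1.85 (SE 0.12, adjusted p = 7.14e-06, limma with Benjamini-Hochberg adjustment over all genes tested). The TPM of TRA2B sums the cDNA and the endogenous gene, which cannot be told apart in these values. For scale, Luc libraries with TRA2B knocked out held 143, 150 and 148 TPM of TRA2B mRNA.

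TRA2A mRNA was lower with TRA2B overexpression. It measured 105, 111 and 111 TPM in the Luc libraries (109 ± 3.31, n = 3) and 84.3, 74.8 and 81.5 TPM in the TRA2B-OE libraries (80.2 ± 4.85, n = 3). The highest TRA2B-OE library lay below the lowest Luc library, and TRA2A fell by 0.50 on the log2 scale (SE 0.07, adjusted p = 0.00750). Without the replicate 1 libraries the fall was 0.55 (adjusted p = 0.0240). In the Luc cells with TRA2B knocked out, which share the Luc control libraries, TRA2A stood at 171, 167 and 170 TPM.

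**Figure D2:**
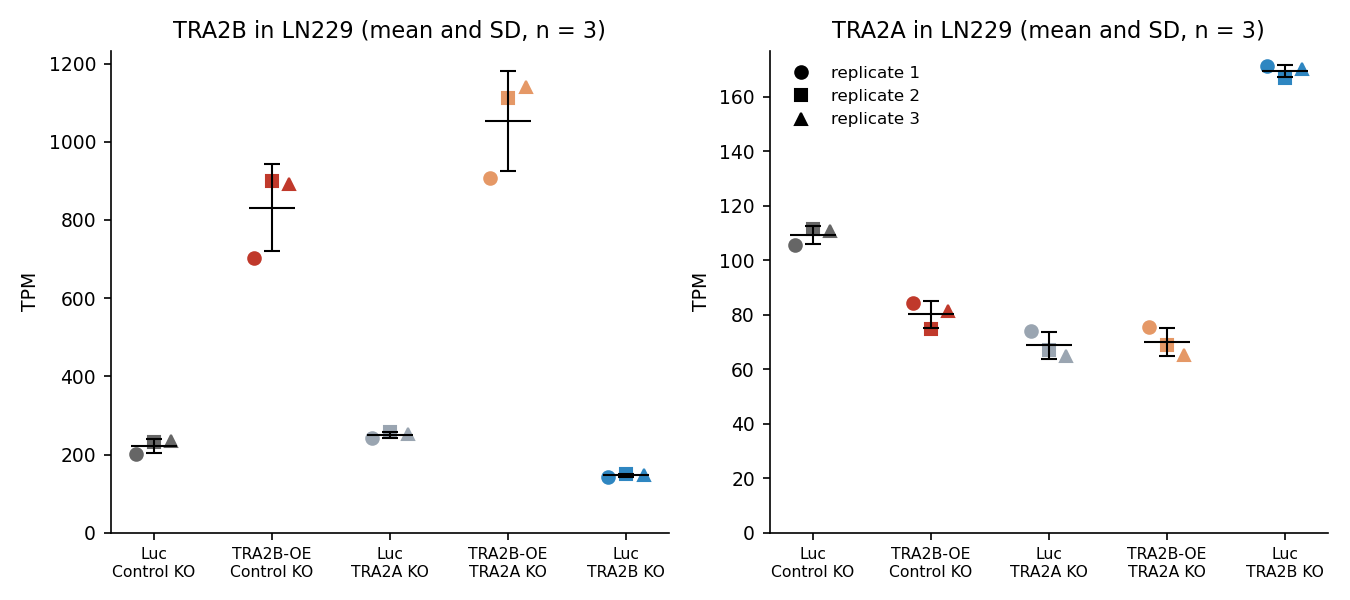
TPM of TRA2B and TRA2A in each of the 15 LN229 libraries by group, with points for libraries and bars for the mean and SD (n = 3). The TRA2B-OE Control KO libraries sit at 703 to 900 TPM for TRA2B and at 74.8 to 84.3 TPM for TRA2A, while the Luc Control KO libraries sit at 202 to 234 and 105 to 111.

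Few genes changed beyond these. Differentially expressed genes (DEGs) had to pass an adjusted p of 0.05 and to move by more than 1 on the log2 scale. They numbered 56, or 0.303% of the 18490 tested, of which 51 rose (0.276%) and 5 fell (0.0270%). Without the minimum fold change, 134 genes rose (0.725%) and 56 fell (0.303%), and 2638 genes had an unadjusted p under 0.05. The median log2 fold change of all genes was -0.01. Of the 50 genes other than TRA2B that rose, 27 would have passed the filter on the 9 Luc libraries alone, and the other 23 were tested because their TRA2B-OE libraries helped them to pass, which favours genes that rose over genes that fell. Leaving out both replicate 1 libraries gave 35 DEGs, 29 up and 6 down, and 21 of the 56 remained DEGs. Leaving out a single library gave between 16 DEGs (without TRA2B-OE replicate 2) and 47 (without Luc replicate 1), with 25 and 34 without Luc replicates 2 and 3 and 34 and 20 without TRA2B-OE replicates 1 and 3. When the spread was estimated from the 6 libraries alone instead of all 15, 1 DEG was left, the U6 copy RNU6-431P (adjusted p = 0.0164), and TRA2B itself had an adjusted p of 0.0524 at the same fold change, so every other call in this comparison rests on the spread shared with the other LN229 groups.

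DEGs were named by size, level and lack of overlap between the groups, so their lack of overlap was set by the choice. Over all genes, 11.7% were higher and 5.21% lower in every TRA2B-OE library than in every Luc library. Several of the DEGs so named encode signalling, plasma, matrix or protease inhibitor proteins. KITLG encodes stem cell factor, the ligand of the receptor tyrosine kinase KIT. It measured 4.88, 3.43 and 5.74 TPM in the Luc libraries and 15.3, 12.0 and 9.99 TPM in the TRA2B-OE libraries (log2 fold change 1.35, SE 0.20, adjusted p = 0.00816). The groups did not overlap, and the adjusted p without replicate 1 was 0.0486.
HPX encodes hemopexin, a plasma protein that binds free heme. It stood at 19.9, 7.87 and 8.67 TPM with Luc and at 49.1, 30.4 and 29.4 TPM with TRA2B-OE (log2 fold change 1.61, SE 0.30, adjusted p = 0.0293). Replicate 1 was the highest library of both groups, and without it HPX rose by 1.80 (adjusted p = 0.00163).
POSTN encodes periostin, a matricellular protein that binds integrins. Its levels were 1.52, 1.29 and 1.58 TPM with Luc and 8.74, 3.48 and 3.61 TPM with TRA2B-OE (log2 fold change 1.61, SE 0.28, adjusted p = 0.0231). The replicate 1 library held the highest value, and the log2 fold change without replicate 1 was 1.21 (adjusted p = 0.0313).
SERPINB7, a member of the serine protease inhibitor family, measured 0.64, 1.55 and 2.16 TPM with Luc and 3.81, 5.65 and 8.36 TPM with TRA2B-OE (log2 fold change 1.99, SE 0.40, adjusted p = 0.0413). Without replicate 1 its adjusted p was 0.0501.

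The other protein-coding DEGs named by the same rule encode proteins of varied function. PARD6A encodes a scaffold of the Par polarity complex, and it rose from 3.05, 2.91 and 3.06 TPM to 7.77, 6.20 and 5.97 TPM (log2 fold change 1.06, SE 0.14, adjusted p = 0.00674). BEX1, a small brain-expressed X-linked protein, rose from 2.35, 2.46 and 3.07 TPM to 7.74, 5.42 and 7.47 TPM (log2 fold change 1.30, SE 0.18, adjusted p = 0.00750). For both genes the lowest TRA2B-OE library lay well above the highest Luc library.
LRRK1, a leucine-rich repeat kinase, measured 6.19, 3.86 and 5.39 TPM with Luc and 12.2, 11.9 and 9.54 TPM with TRA2B-OE (log2 fold change 1.08, SE 0.15, adjusted p = 0.00750). SAMD14, whose product contains a sterile alpha motif, measured 7.15, 5.71 and 4.0 TPM against 15.5, 10.9 and 10.8 TPM (log2 fold change 1.10, SE 0.20, adjusted p = 0.0281). In both cases the lowest TRA2B-OE library was above the highest Luc library.
BASP1, a membrane-bound protein of growing axons, rose by 1.29 on the log2 scale (adjusted p = 0.0458) from 1.28, 2.22 and 3.05 TPM to 4.42, 5.69 and 6.16 TPM. ZDHHC11, of the family of palmitoyltransferases, rose by 1.06 (adjusted p = 0.0344) from 5.90, 7.53 and 8.28 TPM to 13.5, 16.0 and 17.2 TPM. Without replicate 1 the adjusted p was 0.0195 for LRRK1, 0.0337 for SAMD14 and 0.0394 for PARD6A, and 0.0601, 0.0719 and 0.0811 for BEX1, BASP1 and ZDHHC11.

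Some further DEGs were picked after their values were seen. MYH3, the embryonic myosin heavy chain of skeletal muscle, measured 0.82, 0.87 and 1.33 TPM with Luc and 3.24, 3.87 and 4.30 TPM with TRA2B-OE (log2 fold change 1.79, adjusted p = 0.0435, and 0.118 without replicate 1). CNTD2, a cyclin-like gene, measured 1.28, 0.46 and 0.62 TPM against 2.45, 2.37 and 2.19 TPM (log2 fold change 1.52, adjusted p = 0.0385, and 0.0259 without replicate 1). Both were low genes whose groups did not overlap. MYH3 would have passed the filter on the Luc libraries alone, and CNTD2 would not.
CPZ, which encodes a secreted carboxypeptidase, and GPR78, an orphan G protein-coupled receptor, overlap on the plus strand of chromosome 4 in GENCODE 44, where CPZ lies within the span of GPR78. CPZ measured 0.32, 0.34 and 0.32 TPM with Luc and 3.32, 2.16 and 2.45 TPM with TRA2B-OE, and GPR78 measured 0.55, 0.69 and 1.10 TPM against 4.16, 3.98 and 4.82 TPM. Their log2 fold changes were 2.63 (adjusted p = 0.0128) and 2.33 (adjusted p = 0.0231), and reads of the shared stretch could have been credited to either gene, so they may be 1 signal. Without replicate 1 their adjusted p-values were 0.0744 and 0.0910. Neither CPZ nor GPR78 would have passed the filter on the Luc libraries alone, which favours genes that rose. CPZ was tested only through a TRA2B-OE TRA2A KO library.

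**Figure D3:**
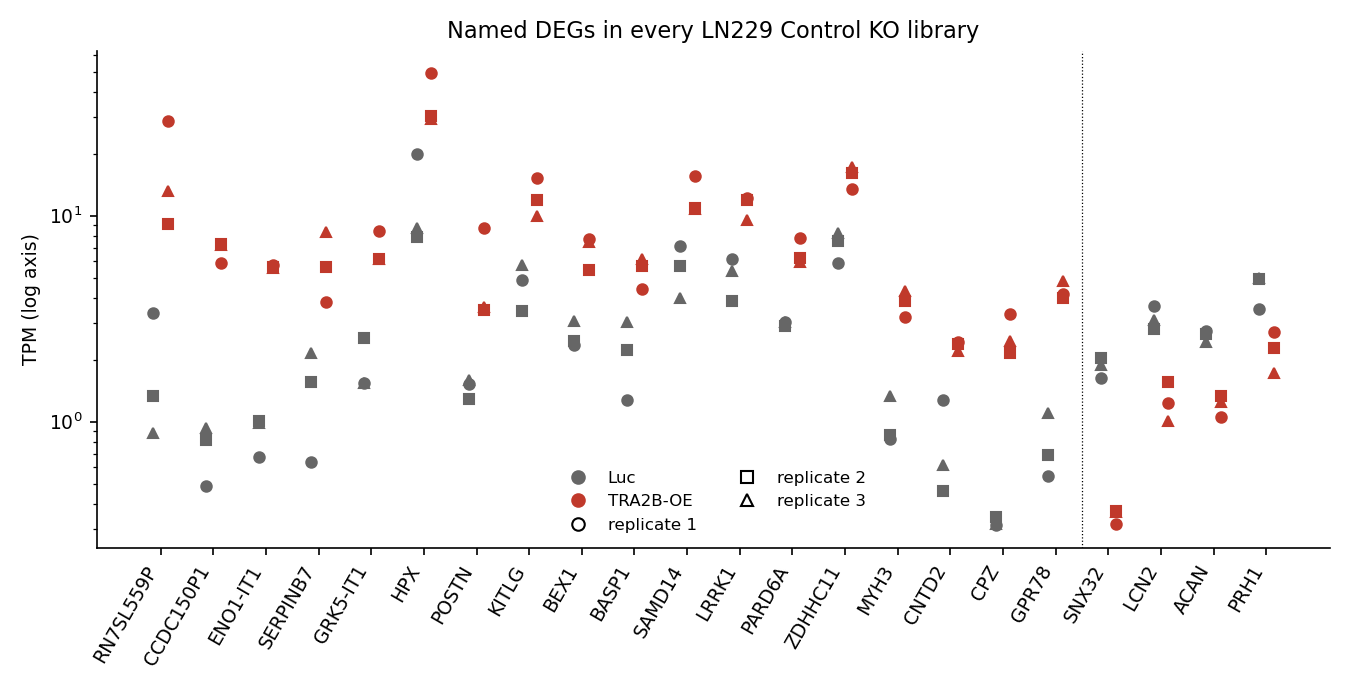
TPM (log axis) of named DEGs in the Luc Control KO and TRA2B-OE Control KO libraries, with 1 marker per library and a marker shape per replicate. For each gene shown the 3 TRA2B-OE libraries lie all above or, for SNX32, LCN2, ACAN and PRH1, all below the 3 Luc libraries. Lack of overlap was a condition of the naming rule, and the other genes were picked after their values were seen.

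The 5 DEGs that fell were all low, and none reached a mean of 5 TPM. They are therefore named outside the rule used for the others, after their values were seen. SNX32, a sorting nexin of endosomal transport, measured 1.63, 2.03 and 1.89 TPM with Luc and 0.32, 0.37 and 0.36 TPM with TRA2B-OE (log2 fold change -2.15, SE 0.34, adjusted p = 0.0138). Its replicates were close to each other in both groups, but its adjusted p without replicate 1 was 0.0570.
ACAN, the large proteoglycan aggrecan of cartilage and perineuronal matrix, measured 2.76, 2.66 and 2.44 TPM with Luc and 1.06, 1.33 and 1.24 TPM with TRA2B-OE (log2 fold change -1.10, adjusted p = 0.0458). LCN2, the iron-siderophore binding protein lipocalin 2, measured 3.63, 2.81 and 3.13 TPM against 1.23, 1.55 and 1.01 TPM (log2 fold change -1.33, adjusted p = 0.0471). PRH1, a salivary proline-rich protein gene, fell by 1.02 on the log2 scale (adjusted p = 0.0458), and the clone-named transcript CTD-3236F5.1 fell by 1.70 (adjusted p = 0.0489). Without replicate 1, PRH1 kept its call (adjusted p = 0.0384) while ACAN (0.158) and LCN2 (0.164) lost theirs.

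Among more abundant genes, several moved by less than 2-fold with little spread between libraries. They were picked after their values were seen. SNRPB2 encodes the B″ protein of the U2 small nuclear ribonucleoprotein, a core part of the spliceosome. It measured 1012, 846 and 809 TPM with Luc and 671, 610 and 602 TPM with TRA2B-OE (log2 fold change -0.55, adjusted p = 0.0236). No TRA2B-OE library reached the lowest Luc library.
CITED4, a coregulator of CBP and p300, fell from 57.3, 44.8 and 42.4 TPM to 25.4, 26.5 and 24.1 TPM (log2 fold change -0.96, adjusted p = 0.00314). MMP15, a membrane-anchored matrix metalloproteinase, fell from 37.0, 35.7 and 36.6 TPM to 24.8, 27.2 and 23.8 TPM (log2 fold change -0.58, adjusted p = 0.00750). The cell adhesion genes CADM4 and CDH13 fell by 0.44 (adjusted p = 0.0314) and 0.42 (adjusted p = 0.0489) on the log2 scale.
Of those that rose, VGF, the precursor of secreted neuropeptides, went from 47.5, 45.3 and 49.4 TPM to 90.4, 80.3 and 83.1 TPM (log2 fold change 0.78, adjusted p = 0.00105). PDK2, a kinase that inhibits pyruvate dehydrogenase, went from 23.7, 26.9 and 21.4 TPM to 39.7, 44.8 and 41.1 TPM (log2 fold change 0.76, adjusted p = 0.00314). MKNK2, a kinase that phosphorylates the translation factor eIF4E and whose isoforms are made by alternative splicing, went from 82.0, 77.1 and 79.5 TPM to 162, 118 and 126 TPM (log2 fold change 0.70, adjusted p = 0.00674). The highest Luc library was below the lowest TRA2B-OE library for each of these.
The nuclear long non-coding RNA MALAT1 rose by 0.61 (adjusted p = 0.0458), from 314, 248 and 275 TPM to 495, 427 and 397 TPM. TGFB2, a ligand of TGF-beta signalling, rose by 0.52 (adjusted p = 0.00816), and SMAD3, a transcription factor that carries this signal to the nucleus, rose by 0.35 (adjusted p = 0.0237). SMAD3 measured 95.1, 105 and 110 TPM with Luc and 136, 143 and 129 TPM with TRA2B-OE. Without replicate 1, CITED4, MMP15, CDH13, VGF, PDK2, MKNK2 and TGFB2 kept an adjusted p under 0.05, and SNRPB2 (0.0635), CADM4 (0.101), MALAT1 (0.0888) and SMAD3 (0.0598) did not.

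Many of the DEGs that rose were not matched to an annotated protein-coding gene. Of the 18490 genes tested, 78.4% could be matched by name to GENCODE 44. Of 12225 protein-coding genes, 21 rose as DEGs (0.172%) and 4 fell, and of 3997 genes without a match, 20 rose. Groups of symbols that held DEGs that rose are described here, and they were picked after their values were seen.
The first group were transcripts named for a position within an intron of another gene, whose symbols end in IT and a number. Of 45 such transcripts tested, 5 rose as DEGs (11.1%), beside 0.276% of all genes, and the median log2 fold change of the 45 was 0.04. Of the 45, 34 would have passed the filter on the Luc libraries alone. ENO1-IT1 and GRK5-IT1 were called among these 34, beside 0.162% of the 17279 genes that passed in the same way. The median log2 fold change of the 34 was 0.03, beside -0.02 for those genes. KIRREL-IT1, TSSC1-IT1 and ZNRF3-IT1 passed the filter with help from their TRA2B-OE libraries, which raises the share of the 45. ENO1-IT1 measured 0.67, 1.01 and 0.99 TPM with Luc and 5.79, 5.63 and 5.57 TPM with TRA2B-OE (log2 fold change 2.52, SE 0.17, adjusted p = 8.67e-06). Its host ENO1, the glycolytic enzyme enolase, had a log2 fold change of -0.07 (adjusted p = 0.879).
ZNRF3-IT1 measured 0.09, 0.05 and 0.14 TPM against 2.55, 1.66 and 2.62 TPM (log2 fold change 3.62, adjusted p = 0.00118). KIRREL-IT1 measured 0.37, 0.43 and 0.95 TPM against 2.87, 3.09 and 3.74 TPM (log2 fold change 2.33, adjusted p = 0.0192). GRK5-IT1 (log2 fold change 1.80, adjusted p = 0.0458) and TSSC1-IT1 (log2 fold change 2.04, adjusted p = 0.0322) were the others, and the groups did not overlap for any of the 5. Without replicate 1, ENO1-IT1 (adjusted p = 0.000132) and ZNRF3-IT1 (0.0195) kept their calls, while KIRREL-IT1 (0.0744), TSSC1-IT1 (0.122) and GRK5-IT1 (0.175) did not.
The host genes did not pass the test. Log2 fold changes were 0.20 for ZNRF3 (adjusted p = 0.496), 0.00 for KIRREL (0.993), -0.03 for TSSC1 (0.897) and -0.48 for GRK5 (0.147). Of 42 hosts tested, 1 had an adjusted p under 0.05, beside 1.03% of all genes. Reads from an intronic transcript and from unspliced RNA of its host cannot be told apart in these gene values where both lie on the same strand.

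**Figure D4:**
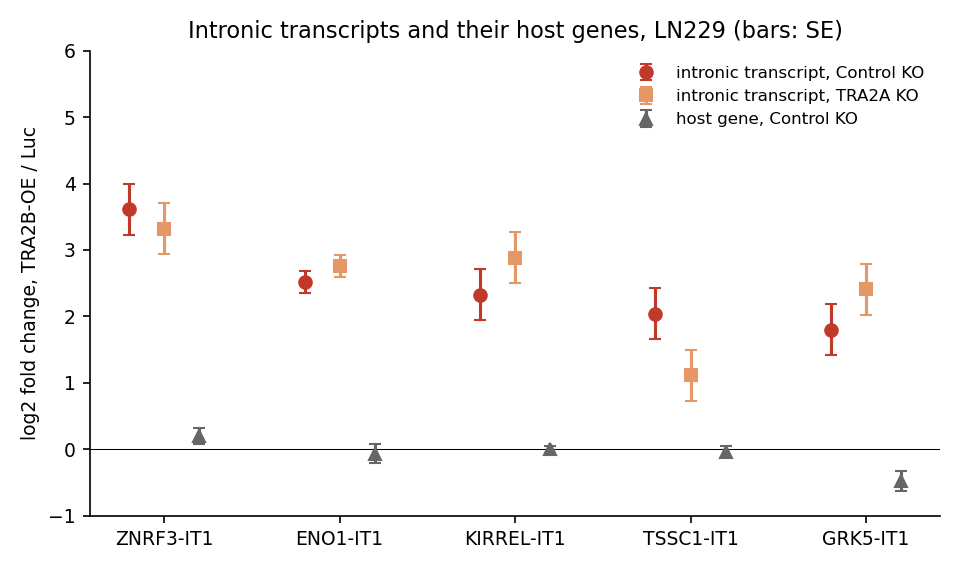
Log2 fold change of TRA2B-OE over Luc in LN229 for 5 intronic transcripts in Control KO and TRA2A KO cells, and for their host genes in Control KO cells. Bars are SE from limma. In Control KO cells the transcripts lie between 1.80 and 3.62 and their hosts between -0.48 and 0.20. In TRA2A KO cells the transcripts lie between 1.11 (TSSC1-IT1) and 3.32 (ZNRF3-IT1). KIRREL-IT1, TSSC1-IT1 and ZNRF3-IT1 were tested only through a TRA2B-OE TRA2A KO library, which favours high values in TRA2A KO cells.

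The second group were copies of small nuclear and cytoplasmic RNA genes. RNU6-431P, a U6 pseudogene copy on the plus strand at chr4:108652150-108652256 (hg38), within OSTC, measured 3.52, 2.69 and 3.29 TPM with Luc and 19.5, 25.1 and 21.8 TPM with TRA2B-OE (log2 fold change 2.72, adjusted p = 5.56e-06, and 6.35e-05 without replicate 1). OSTC itself had a log2 fold change of -0.22 (adjusted p = 0.277). RN7SL559P, a copy of the signal recognition particle RNA on the minus strand at chr1:28031884-28032180 within an intron of EYA3, measured 3.36, 1.34 and 0.88 TPM against 28.8, 9.09 and 13.2 TPM (log2 fold change 3.12, SE 0.60, adjusted p = 0.0336, and 0.0562 without replicate 1). EYA3 had a log2 fold change of 0.33 (adjusted p = 0.0523, and 0.0392 on TPM as deposited).
RNU6-817P was listed at 0.64, 0 and 0 TPM with Luc and at 7.70, 5.50 and 3.22 TPM with TRA2B-OE. RNU6-1255P and RN7SKP11 were listed at 0 in all 3 Luc Control KO libraries, so no fold is given for them. RNU6-1255P and RN7SKP11 would not have passed the filter on the Luc libraries alone. Of 144 U6 copies tested, 3 rose as DEGs, RNU6-1255P among them (2.08%, beside 0.276% of all genes). The median log2 fold change of the 144 was 0.51 in this comparison and 0.15 among the TRA2A KO libraries. Of 280 copies of the signal recognition particle RNA tested, 1 rose as a DEG (0.357%), close to the share of all genes. Such copies are short, near-identical to each other and poorly captured by selection for poly(A) tails, so their values are uncertain.
The third group were pseudogenes. Of 211 annotated processed pseudogenes tested, UBA52P8 and PTMAP1 rose as DEGs (0.948%, beside 0.276% of all genes). UBA52P8 would not have passed the filter on the Luc libraries alone. PTMAP1 had a log2 fold change of 0.30 among the TRA2A KO libraries (adjusted p = 0.585, limma). CCDC150P1, a copy of CCDC150, measured 0.49, 0.82 and 0.93 TPM with Luc and 5.92, 7.29 and 7.20 TPM with TRA2B-OE (log2 fold change 3.02, SE 0.25, adjusted p = 0.000125). The difference was over 8-fold with no overlap, and without replicate 1 the log2 fold change was 2.88 (adjusted p = 0.00112).

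Among genes that regulate splicing, the process in which TRA2B acts, no member of a list passed the test in Control KO cells. None of the 11 SR proteins tested passed, with a median log2 fold change of -0.07 beside -0.01 for all genes (SRSF12 was below the filter). SRSF3, which had 352, 387 and 387 TPM with Luc and 319, 389 and 406 TPM with TRA2B-OE, overlapped between groups. SRSF6 measured 85.8, 97.1 and 90.3 TPM against 85.5, 84.2 and 83.9 TPM, a difference that did not pass (log2 fold change -0.15). In TRA2A KO cells SRSF3 fell by 0.52 (adjusted p = 0.00677).
None passed among 8 kinases that phosphorylate SR proteins (median 0.03), 25 hnRNP proteins (-0.05), which often oppose SR proteins on exons, 32 other splicing regulators (0.02) and 10 NMD factors (-0.03). Among the TRA2A KO libraries, 6 of the 25 hnRNP genes fell with an adjusted p under 0.05 (24.0%, beside 4.22% of all genes), with a median of -0.18. Among 7 genes whose exons are known or reported targets of TRA2 proteins, none passed either (median -0.10). These include the checkpoint kinase gene CHEK1 (log2 fold change 0.02, adjusted p = 0.983) and the centrosome and cilium genes CEP192 (-0.09, 0.810), OFD1 (0.13, 0.712) and CNTRL (-0.11, 0.695). Splicing of these genes was not measured here.

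Lists of cell state genes were described in the same way. No S phase gene of 43 (median log2 fold change -0.01), no G2/M gene of 52 (-0.13, and -0.25 without replicate 1), no p53 target of 24 (-0.02) and no interferon-stimulated gene of 40 (-0.26) passed the test. Replicate 1 libraries held lower S phase and higher interferon gene levels in both groups, as given above.
Of 15 genes of the MHC class I pathway, which presents peptides to T cells, none passed, but 6 (40.0%) were lower in every TRA2B-OE library than in every Luc library, beside 5.21% of all genes. Their median log2 fold change was -0.14, and the mean log2 level of the list was 6.09, 5.99 and 5.95 in the Luc libraries and 5.85, 5.88 and 5.89 in the TRA2B-OE libraries. All 3 TRA2B-OE libraries thus lay below all 3 Luc libraries by small amounts. Among the TRA2A KO libraries the median was -0.24, and 5 of the 15 fell with an adjusted p under 0.05, beside 4.22% of all genes.
Of 433 zinc finger genes, ZNF160 (log2 fold change 0.74, adjusted p = 0.0203) and ZNF212 (0.48, 0.0322) rose and none fell (0.462% rose, beside 0.725% of all genes), though ZNF212 had an adjusted p of 0.0783 without replicate 1, and the median of 0.02 was close to that of all genes. Of these 433, 71 (16.4%) were higher in every TRA2B-OE library than in every Luc library, beside 11.7% of all genes, and 13 (3.00%) were lower, beside 5.21%. TGFB2, which rose, was the member called of 18 TGF-beta and YAP target genes (median 0.17). MMP15, which fell, was the member called of 19 matrix proteases and their inhibitors (median -0.05). Over all genes, 0.725% rose and 0.303% fell with an adjusted p under 0.05. No member of any of these lists was a DEG.

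The same cDNAs were also compared in LN229 cells carrying guides against TRA2A, in 3 TRA2B-OE and 3 Luc libraries that share no library with the comparison above. The cells may stem from the same cDNA-carrying populations, and a difference between those populations would then show in both comparisons. The knockout libraries of Luc cells held TRA2A at 74.2, 67.1 and 65.0 TPM, and those with TRA2B-OE at 75.6, 68.8 and 65.4 TPM (log2 fold change -0.08, adjusted p = 0.537). TRA2A, itself the target of the guides in these cells, thus had similar levels with both cDNAs. The difference between both fold changes was 0.42 (SE 0.10), with an unadjusted p of 0.000949 and an adjusted p of 0.514.
TRA2B measured 243, 256 and 254 TPM with Luc and 907, 1112 and 1141 TPM with TRA2B-OE in these cells (log2 fold change 1.96, adjusted p = 2.73e-06). The rise differed from that in Control KO cells by 0.11 (adjusted p = 1.00). More genes passed than in Control KO cells, with 308 DEGs (1.67% of 18490), of which 245 rose (1.33%) and 63 fell (0.341%). Without the minimum fold change, 745 genes rose (4.03%) and 781 fell (4.22%).
Most of the DEGs that rose in Control KO cells were also called here. Of the 50 other than TRA2B, 14 would not have been tested without a high value in a TRA2B-OE TRA2A KO library and are not counted. Of the other 36, 35 had a positive log2 fold change among the TRA2A KO libraries. With an adjusted p under 0.05, 33 of the 36 rose, beside 3.86% of the 17856 genes that passed the filter in the same way. As DEGs, 31 of the 36 rose, beside 1.08%. Their median log2 fold change was 1.58, or 1.56 without the 1 gene listed at 0 in the Luc TRA2A KO libraries, beside -0.04 for those genes. KITLG rose by 1.26 (adjusted p = 0.00295), HPX by 1.56 (0.00814), POSTN by 1.31 (0.0136), SERPINB7 by 2.29 (0.00583), LRRK1 by 1.65 (0.000203) and ENO1-IT1 by 2.77. RNU6-817P had a log2 fold change of 0.03 there, with 7.81, 3.90 and 3.73 TPM in the Luc libraries.
Of the 5 DEGs that fell in Control KO cells, 1 passed here. ACAN fell (log2 fold change -1.51, adjusted p = 0.00268), and the values were -0.38 for SNX32 (0.535), -0.34 for LCN2 (0.505), -0.45 for PRH1 (0.217) and -0.22 for CTD-3236F5.1. SNRPB2 fell by 0.82 (0.000769), and CITED4 by 0.60 (0.00876), and VGF (0.81), PDK2 (0.99) and MKNK2 (0.99) rose. Of the 45 intronic transcripts, 8 rose as DEGs (17.8%, beside 1.33% of all genes). Of the 35 that passed the filter without the TRA2B-OE TRA2A KO libraries, 4 rose as DEGs, beside 1.08% of the 17856 genes. The median log2 fold change of the 35 was 0.30, beside -0.04. TSSC1-IT1, which was not among the 35, had a log2 fold change of 1.11 (adjusted p = 0.0937).
The test of the difference between both responses passed for no gene (0.00% of 18490, limma), while 1068 genes had an unadjusted p under 0.05. A call in one setting and not in the other, as for SNX32 (difference 1.77, adjusted p = 0.625), was therefore not shown to be a difference between them. Without TRA2B-OE Control KO replicate 1 the difference passed for 11 genes, and without both replicate 1 libraries for 7.

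**Figure D5:**
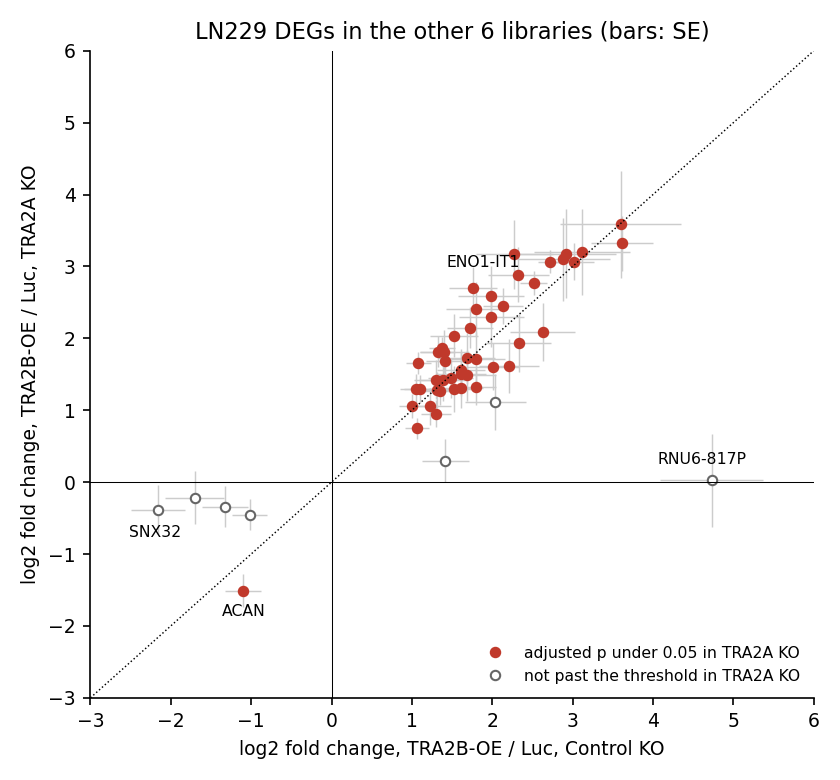
Log2 fold change of TRA2B-OE over Luc with control guides (x axis) against that with guides to TRA2A (y axis) for the 53 DEGs other than TRA2B and the 2 genes listed at 0 with Luc and control guides, with SE bars from limma. Most DEGs that rose lie near the dotted line of equal values, while SNX32 and RNU6-817P lie near 0 on the y axis. The DEGs that rose include the 14 that were tested only through a TRA2B-OE TRA2A KO library, which favours high values on the y axis.

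LN319, a second human glioma line, received the same cDNAs and guides and was fitted on its own table, so values are set side by side with no test between lines. TRA2B measured 90.2, 83.5 and 89.1 TPM in its Luc libraries and 777, 840 and 678 TPM in its TRA2B-OE libraries (log2 fold change 3.03, adjusted p = 2.08e-09). TRA2A measured 101, 107 and 113 TPM against 93.7, 91.4 and 88.2 TPM (log2 fold change -0.32, adjusted p = 0.0458). With TRA2A knocked out in LN319, TRA2A instead rose with TRA2B-OE, from 33.9, 34.3 and 38.3 TPM to 50.7, 51.3 and 42.4 TPM (log2 fold change 0.37, adjusted p = 0.0133).
LN319 had 134 DEGs, 0.694% of 19303 genes tested. Of the 50 LN229 DEGs that rose other than TRA2B, 36 were tested in LN319, and 27 would have been on its 9 Luc libraries alone. Of these 27, 7 rose there with an adjusted p under 0.05, beside 2.14% of the 18196 genes that passed in the same way. As DEGs, 6 of the 27 rose, beside 0.396%. Their median log2 fold change was 0.45, beside -0.03. With TRA2A knocked out in LN319, 263 of all genes tested (1.36%) were DEGs. There, 12 of the 27 rose with an adjusted p under 0.05, beside 5.72% of the 18196 genes. As DEGs, 10 of the 27 rose, beside 0.764%.
The DEGs called in both lines numbered 9, which is 16.1% of those of LN229 and 6.72% of those of LN319. They were TRA2B, HPX, MYH3, CNTD2, CCDC150P1, ENO1-IT1 and 3 clone-named transcripts (CTC-459F4.1, CTD-2639E6.9 and RP11-635L1.2). Of these, CNTD2, CCDC150P1, CTC-459F4.1 and RP11-635L1.2 would not have passed the filter on the LN229 Luc libraries alone. Of the 8 other than TRA2B, 6 would have passed it on the LN319 Luc libraries alone. The filter thus favoured some of this overlap. MYH3 measured 8.51, 9.19 and 8.48 TPM with Luc and 30.1, 24.1 and 22.1 TPM with TRA2B-OE in LN319 (log2 fold change 1.43, adjusted p = 0.000194). ENO1-IT1 measured 1.61, 1.95 and 1.46 TPM against 4.78, 4.94 and 5.21 TPM (1.44, adjusted p = 0.000145), and HPX had a log2 fold change of 1.20 (adjusted p = 0.00762).
Several genes named above did not pass in LN319. KITLG had a log2 fold change of -0.27 in LN319 (adjusted p = 0.711), BASP1 of -0.20 (0.308), SAMD14 of -0.10 (0.779), VGF of -0.16 (0.557) and SNRPB2 of -0.22 (0.220). SERPINB7, POSTN, CPZ, GPR78, ACAN and LCN2 did not pass the filter on low values in LN319. Whether these responses differ between the lines was not tested.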

How the data were processed

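RNA-seq libraries were stranded, poly(A)-selected and read in pairs. The authors quantified transcripts with kallisto 0.48.0 against GENCODE on GRCh38 and deposited TPM per gene and library (STAR 2.7.3, also listed in the submitters' processing notes, served their splicing analysis). TPM keep no read depth, so depth and counting error are unknown here, and the authors' limma-voom, which needs counts, could not be run. Instead, libraries were put on one scale by a trimmed mean of log ratios without weights (0.3 of ratios and 0.05 of levels trimmed at each end), log2(TPM + 0.1) was taken, and all 15 libraries of a line were fitted with 1 mean per group in limma 3.58.1 (R 4.3.3; empirical Bayes with trend, two-sided, Benjamini-Hochberg over all genes kept). Fold changes are on that scale and understate changes of low genes. TPM printed are as deposited, and totals were 956252 to 960161 per LN229 library. Genes had to reach 1 TPM in 4 libraries. The scripts were tested on simulated data.

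Named genes were TRA2A, TRA2B, CHEK1, CEP192, OFD1, CNTRL, SRSF1 to SRSF12 and up to 15 DEGs per direction by fold change, whose libraries did not overlap and whose higher group had a mean of at least 5 TPM, without clone names, LINC, MIR, SNOR or RNU symbols or annotated pseudogenes (CCDC150P1 and RN7SL559P passed because the annotation used did not class them so), plus DEGs in a gene list. Others were named after their values were seen. The comparison, its genes and all lists were chosen with earlier results of these data known. Positions and sequences came from GENCODE 44 and hg38, read with Python 3.11.15 and pandas 2.3.3. Replicate numbers were not used to pair the samples in the main fit. Deviations of same-numbered Control KO libraries from their group means correlated at 0.21, 0.0012 and 0.059 for replicates 1, 2 and 3. The replicate 1 libraries thus shared part of their deviation, and counts with the replicate number as a block are given below. Alternatives changed the pseudocount, filter, scaling, libraries in the fit and block, and left out each library. The other cell lines of the series were not used here.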

Additional observations from a re-analysis of the deposited data

Results flagged for a closer look

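Of the named genes, 3 had every TRA2B-OE Control KO library on one side of every Luc Control KO library in LN229 and on the other side in LN319. None passed the test in LN319. The difference between the lines was not tested. BEX1 rose in LN229 (log2 fold change 1.30) and had a log2 fold change of -0.37 in LN319, where it measured 54.5, 53.9 and 53.1 TPM with Luc and 39.4, 45.4 and 49.0 TPM with TRA2B-OE (adjusted p = 0.0876, limma). PARD6A rose in LN229 (1.06) and had a log2 fold change of -0.31 in LN319, from 13.2, 12.8 and 13.4 TPM to 9.67, 11.8 and 12.3 TPM (adjusted p = 0.193). SRSF6, an SR protein, had log2 fold changes of -0.15 in LN229 and 0.052 in LN319, and passed in neither line.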

How the results depend on the processing

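The fold changes of TRA2B (1.77 to 1.98 with each library left out) and TRA2A (-0.53 to -0.44) kept their direction in every alternative, but with the fit restricted to the groups compared they were no longer called (1.85, adjusted p = 0.0524, and -0.50, adjusted p = 0.237). No direction reversed. The 56 LN229 DEGs became 24 with a filter of 5 TPM, 1 in the restricted fit and 190 with no minimum fold change. Leaving out 1 library gave 16 to 47: 25 and 34 without Luc replicates 2 and 3, and 34, 16 and 20 without TRA2B-OE replicates 1, 2 and 3. The 308 DEGs of TRA2A KO cells became 113 (5 TPM) and 1526 (no minimum), and 170 to 273 with a library left out (200 and 197 without Luc replicates 1 and 2, 170 and 200 without TRA2B-OE replicates 2 and 3). The 134 DEGs of LN319 became 77 (pseudocount 1), 66 (5 TPM), 33 (restricted fit) and 830 (no minimum), and 48 to 211 with a library left out (80 without Luc replicate 1, and 48, 70 and 211 without TRA2B-OE replicates 1, 2 and 3). The difference between both LN229 responses passed for 2 genes without the filter and for 0 to 11 with a library left out (1 without Luc replicate 1, 11 and 1 without TRA2B-OE replicates 1 and 2). Leaving out both replicate 1 libraries, chosen after seeing the data, gave 35 DEGs and 7 such differences. With the replicate number as a block, DEGs were 73, 345 and 184, and the difference passed for 0 genes. Of 35 named genes called, 17 lost the call without the filter, 3 each with deposited or quantile-scaled TPM, 1 with the block, 35 in the restricted fit, 10 to 21 with a library left out and 17 without both replicate 1 libraries. EYA3, not called, gained a call in 5 alternatives (adjusted p 0.0392 to 0.0497): both pseudocounts, 5 TPM, deposited TPM and the block. DEGs that rose and fell were 57 and 2 on deposited TPM and 47 and 8 after quantile scaling, against 51 and 5. Beyond fewer genes or libraries, the causes were not tested. Genes near 1 TPM are the least certain.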

Other observations

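Of 48 histone genes tested, none passed the test with TRA2B overexpression in LN229, and their median log2 fold change was -0.42, beside -0.01 for all genes. The median was -0.16 among the TRA2A KO libraries and -0.27 in LN319. Most histone mRNAs lack a poly(A) tail, and 3 of the 48 were lower in every TRA2B-OE library than in every Luc library (6.25%, beside 5.21% of all genes).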
